A study of Mus musculus with 6 samples.

Results

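The nicotinic acetylcholine receptor of skeletal muscle and the proteins that gather it under the nerve ending were examined as a group of 10 genes, in cultured myoblasts that lacked Hdac11 and in wild-type myoblasts. The members were chosen by gene symbol: the receptor subunit genes Chrna1, Chrnb1, Chrnd, Chrng and Chrne, the clustering genes Lrp4, Musk, Dok7 and Rapsn, and Ache, the gene of acetylcholinesterase. All 10 were present among the 21778 genes of the deposited table. Of the members, 9 were among the 14835 genes that passed the filter on low counts, and Chrne was not.

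The knockout group (KO) held 3 libraries of genotype Hdac11-/- and the wild-type group (WT) held 3 libraries of littermates, all of strain C57BL/6. Per the labels' protocols, exon 3 of Hdac11, which encodes the class IV histone deacetylase, was flanked by loxP sites and removed by a Cre recombinase driven by the Sox2 promoter, and homozygous animals came from crosses of heterozygotes. Myoblasts sorted from hindlimb muscle for alpha7-integrin and CD34 were plated on matrigel at 26000 cells per cm2 and kept for 24 hours in medium with 2% horse serum, which starts their differentiation into myotubes. The labels name no nerve cells and no added agrin in these cultures. Poly(A) RNA was sequenced, and a value in CPM, counts per 1e6, is relative to the library size scaled by TMM, edgeR's trimmed mean of M-values.

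In muscle, the receptor is a pentameric ion channel that opens when acetylcholine binds. Fetal and denervated fibres carry a receptor with the gamma subunit, and after innervation the epsilon subunit takes the place of gamma. Nerve-derived agrin binds LRP4, which activates the receptor tyrosine kinase MuSK. DOK7 is the cytoplasmic activator of MuSK, and rapsyn, the product of Rapsn, anchors the receptors in dense clusters. Receptor genes rise when myoblasts leave the cell cycle and fuse, driven by myogenic factors that bind E-boxes in their promoters, while the epsilon promoter holds an N-box, a site for ETS-family factors.

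Promoter sequences from RefSeq on GRCm38.p6 were found for 7 of the 10 members, and those of 4 are shown because they belong to the acetylcholine-binding alpha subunit, the fetal and adult subunits that are contrasted here, and the member with the largest fold change. Each is the 250 bases before the transcript start of the promoter table, 5′ to 3′. For Musk and Chrne another transcript starts further upstream, so that 233 bases of the Musk window, with its 3 E-boxes, and 19 bases of the Chrne window lie inside the annotated range of the gene. Capitals mark E-boxes, spelled CANNTG, and the N-box, spelled CCGGAA on either strand. The windows were Chrna1 at chr2:73580339-73580588 on the minus strand, Chrng at chr1:87205561-87205810 on the plus strand, Chrne at chr11:70619195-70619444 on the minus strand and Musk at chr4:58285712-58285961 on the plus strand.
Chrna1: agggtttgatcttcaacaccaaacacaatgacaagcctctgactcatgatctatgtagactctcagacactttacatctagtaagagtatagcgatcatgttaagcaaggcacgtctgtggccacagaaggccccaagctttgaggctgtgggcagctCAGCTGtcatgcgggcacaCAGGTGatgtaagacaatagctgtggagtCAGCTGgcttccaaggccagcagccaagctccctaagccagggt
Chrng: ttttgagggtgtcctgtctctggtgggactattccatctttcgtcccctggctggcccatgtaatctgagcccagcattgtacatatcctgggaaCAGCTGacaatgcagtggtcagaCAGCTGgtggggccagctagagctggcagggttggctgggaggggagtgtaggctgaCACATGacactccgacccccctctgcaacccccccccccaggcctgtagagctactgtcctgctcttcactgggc
Chrne: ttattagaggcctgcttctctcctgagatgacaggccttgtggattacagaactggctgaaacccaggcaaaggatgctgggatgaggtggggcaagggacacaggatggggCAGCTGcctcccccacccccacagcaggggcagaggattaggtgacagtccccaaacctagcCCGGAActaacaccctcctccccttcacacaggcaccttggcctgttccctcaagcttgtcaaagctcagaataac
Musk: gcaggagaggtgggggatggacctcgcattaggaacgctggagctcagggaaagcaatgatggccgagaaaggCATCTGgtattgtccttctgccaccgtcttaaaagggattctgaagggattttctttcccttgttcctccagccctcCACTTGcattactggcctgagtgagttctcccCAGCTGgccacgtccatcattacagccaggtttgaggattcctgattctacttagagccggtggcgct
E-boxes numbered 3 in the Chrna1, Chrng and Musk windows and 1 in that of Chrne. Over 32851 promoter windows of this length, 66.2% held at least 1 E-box and 12.2% held 3 or more. The form CAGCTG, which is contained in the E-box search, occurred 2 times in Chrna1 and in Chrng, against 1.26% of all windows with 2 or more, and 1 time in Chrne and in Musk, against 13.0% with at least 1. The Chrng copies began 155 and 132 bases before the start. The windows of Chrnb1, Dok7 and Ache, which are not shown, held 0 copies of CAGCTG. Their E-boxes numbered 3 in Chrnb1, 1 and 0 in the windows of Dok7, and 1 in Ache. Of the 4 windows, only that of Chrne held the N-box, 76 bases before its start, and 12.0% of all windows held one. These matches describe letters and not binding.

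Total counts per library ran from 16742457 to 22835394. The Hdac11 level in the libraries labelled KO replicates 1, 2 and 3 was 33.5, 76.4 and 30.2 CPM, against 63.0, 79.5 and 73.8 CPM in WT libraries. These counts cover the whole gene and not the deleted exon alone. KO replicate 2 did not show the lower Hdac11 level of the other KO libraries, and values of several members and lists are also given without it. DESeq2 results of single genes outside the members are given with all 6 libraries only. The myoblast markers Myod1 and Des averaged 1063 ± 142 and 1025 ± 299 CPM in KO libraries and 1099 ± 219 and 1886 ± 151 CPM in WT libraries (SD, n = 3). Of 6 fibroblast and fibro-adipogenic markers, 5 were in the table and summed to 626 to 769 CPM in KO libraries and 332 to 541 CPM in WT libraries. Nearly all of this was Col3a1, at 693 ± 70.6 CPM in KO libraries and 444 ± 107 CPM in WT libraries. Pdgfra, which defines fibro-adipogenic cells, was at 0.548 to 0.678 CPM in KO libraries and 0.265 to 0.388 CPM in WT libraries. Like Col3a1 it was higher in KO without overlap, at only 5 to 15 counts per library. Ly6a, Col1a1 and Dcn had lower means in KO. The Schwann cell and glial markers (6 of 7 in the table) summed to 9.77 to 13.8 CPM in KO libraries and 9.90 to 15.1 CPM in WT libraries, and the endothelial markers (4 of 5) to 1.48 to 4.01 CPM in KO libraries and 1.59 to 2.86 CPM in WT libraries. The leukocyte markers (3 of 5) summed to 5.31 to 6.93 CPM in KO libraries and 5.30 to 15.9 CPM in WT libraries, and the motor neuron markers (4 of 7) to 10.4 to 23.2 CPM in KO libraries and 6.16 to 30.3 CPM in WT libraries. None of the markers in the table was at 0 in all 6 libraries. The table lacked the other markers, so their levels are not known. The part of these cells in the results was not tested.

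All 9 tested members, chosen with earlier results of these data known, had a lower mean in KO libraries than in WT libraries. Their log2 fold changes had a median of -0.57, while 50.8% of all tested genes had a lower value in KO and their median was -0.01. Among the 9 tested members, the fetal gamma subunit gene Chrng and the kinase gene Musk had the largest differences. Their KO means were at 44.4% and 38.0% of the WT means. In edgeR's quasi-likelihood test, 0 of the 9 members passed an adjusted p of 0.05, where 0 of all 14835 tested genes passed as well (0% called). At an unadjusted p under 0.05, 4 members were lower in KO (Chrng, Musk, Chrnb1 and Lrp4) and 0 were higher, where 7.83% of all tested genes were lower and 9.88% higher. DESeq2 called Chrng and Musk lower in KO, with 2.21% of all genes with an adjusted p called lower and 4.17% called higher, and limma-voom called 0, with the same 4 members at an unadjusted p under 0.05 (7.19% of all tested genes were lower at that level). The authors' deposited table also held Chrng and Musk as lower, with 2.13% of its genes called lower. Chrng, Musk and Chrnb1 had every KO value below every WT value, which is 3 of the 9 tested members against 10.2% of all tested genes that were lower without overlap. In bulk RNA, fewer cells of a type and less RNA per cell cannot be told apart.

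**Figure D1:**
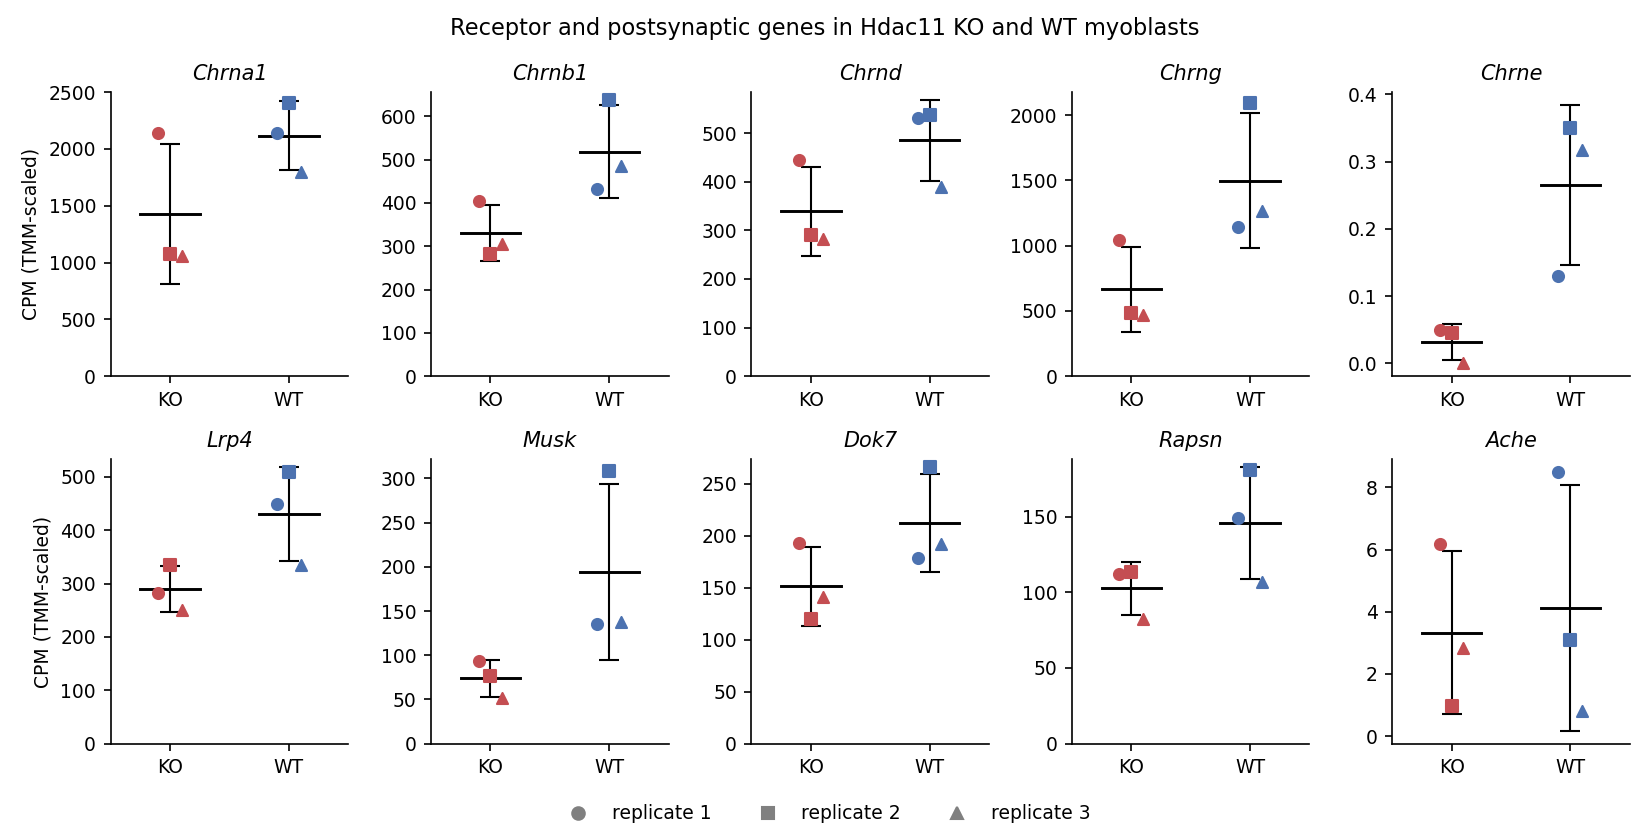
Level of each of the 10 genes in TMM-scaled CPM on linear axes that differ between panels. Each symbol is 1 library, the wide line is the mean and the bar is the SD (n = 3 each for KO and WT). KO and WT symbols are apart for Chrng, Musk, Chrnb1 and Chrne and overlap for the other genes.

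**Figure D2:**
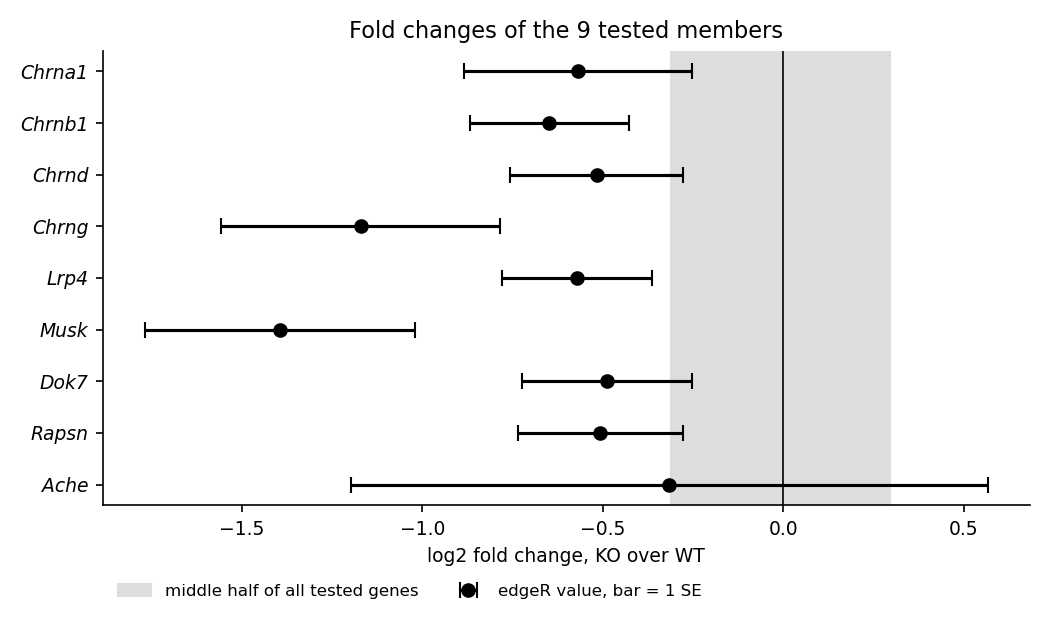
edgeR log2 fold change of KO over WT for the 9 tested members, with bars of 1 standard error. The grey band spans the quartiles of all tested genes, from -0.31 to 0.29, and the points of 8 members lie left of it, as does that of Ache by a small margin, with a bar that crosses 0.

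Among the subunits that fetal and adult receptors share, Chrna1 encodes the alpha subunit, which binds acetylcholine. Its level was 2137, 1076 and 1061 CPM in KO replicates 1, 2 and 3, against 2142, 2405 and 1797 CPM in WT replicates 1, 2 and 3. KO replicate 1 lay at the level of WT replicate 1, so the groups overlapped, while KO replicates 2 and 3 lay below every WT library. The log2 fold change of Chrna1 was -0.57 (SE 0.32) with an edgeR adjusted p of 0.375. With KO replicate 1 left out it was -0.98 in edgeR, and DESeq2 then gave an adjusted p of 0.00127. Without the library labelled KO replicate 2 it was -0.40 in edgeR and the DESeq2 adjusted p was 0.596. Without KO replicate 3 these values were -0.38 and 0.794. When WT replicate 1, 2 or 3 was omitted, the DESeq2 adjusted p was 0.423, 0.700 and 0.307.

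Chrnb1, the beta subunit gene, was at 405, 282 and 306 CPM in KO libraries, against 432, 638 and 486 CPM in WT libraries. Every KO library was below every WT library, although KO replicate 1 and WT replicate 1 were close. The log2 fold change was -0.65 (SE 0.22), with an unadjusted edgeR p of 0.0203 and an adjusted p of 0.217. Without the library labelled KO replicate 2 it was -0.54 in edgeR, with an unadjusted p of 0.0740. Without KO replicate 3 or WT replicate 2 the unadjusted edgeR p was 0.0649 and 0.0673. Chrnd, the delta subunit gene, was at 446, 290 and 281 CPM in KO libraries, against 530, 536 and 389 CPM in WT libraries, and KO replicate 1 lay above WT replicate 3. Its log2 fold change was -0.52 (SE 0.24) with an edgeR adjusted p of 0.307.

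Chrng, the gene of the fetal gamma subunit, was at 1043, 483 and 470 CPM in KO libraries, against 1140, 2089 and 1266 CPM in WT libraries. The groups did not overlap, and the values of KO replicates 2 and 3 stood well below the rest while WT replicate 2 stood above. The log2 fold change was -1.17 (SE 0.39), with an edgeR adjusted p of 0.212 and a DESeq2 adjusted p of 0.0399. The authors' deposited table held -1.02, adjusted p = 0.0403. Without the library labelled KO replicate 2 the edgeR log2 fold change was -0.98 (SE 0.44) and the DESeq2 adjusted p was 0.183. Without WT replicate 2 it was -0.85 in edgeR and the DESeq2 adjusted p was 0.312. When KO replicate 3 or WT replicate 3 was omitted, the DESeq2 adjusted p was 0.334 and 0.0683. That p was 0.000121 without KO replicate 1 and 0.0282 without WT replicate 1.

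Chrne, the gene of the adult epsilon subunit, gave almost no reads. It had 1, 1 and 0 counts in KO replicates 1, 2 and 3, against 3, 6 and 6 counts in WT replicates 1, 2 and 3. Every KO library was thus below every WT library, at a depth of 2 counts in all KO libraries and 15 in all WT libraries. The ratio of the scaled sums was 0.131, with an exact 95% binomial interval of 0.0146 to 0.565 that covers counting error only and not the spread between cultures. For the CPM values of Chrne an exact permutation test, two-sided, gave p = 0.1, the smallest value that 3 against 3 libraries allow. With no filter on low counts, the edgeR adjusted p of Chrne was 0.275. The RefSeq gene 4930544D05Rik overlaps Chrne, as Gm30940 overlaps Chrna1 and Gm42456 and Mir8116 overlap Ache. The library kit marked the strand, and the sources used here do not say whether counting used the strand.

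The gamma to epsilon contrast asks which form of receptor the cells were set to make. Chrne reads were 0.00477%, 0.00926% and 0% of the sum of Chrng and Chrne reads in KO replicates 1, 2 and 3, against 0.0113%, 0.0167% and 0.0251% in WT replicates 1, 2 and 3. The highest upper bound of the exact 95% binomial intervals was 0.0546%, in WT replicate 3, and that of KO replicate 3, with 0 of 8329 reads, was 0.0443%. A limit of 3 counts would put that library at up to 0.0360%. The fetal subunit therefore held nearly all of these reads in every library of both genotypes. The log2 ratio of Chrng to Chrne counts, with 0.5 added to both, was 13.8, 12.8 and 14.0 in KO libraries, against 12.9, 12.4 and 11.8 in WT libraries. These ratios overlapped, and their means of 13.5 ± 0.64 in KO and 12.4 ± 0.52 in WT (SD, n = 3) differed by 1.15, with p = 0.2 in an exact two-sided permutation test that cannot go below 0.1. With 2 added in place of 0.5, the difference was 0.19 (exact permutation p = 0.7), so its size rests on the pseudocount.

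Set against the subunits that both receptor forms share, the gamma count was a smaller percentage in KO libraries. Counts of Chrng were 105%, 88.0% and 85.7% of the mean count of Chrna1, Chrnb1 and Chrnd in KO replicates 1, 2 and 3, against 110%, 175% and 142% in WT replicates 1, 2 and 3. The groups did not overlap, though KO replicate 1 and WT replicate 1 differed little. The means were 92.8% ± 10.4 in KO and 142% ± 32.5 in WT (SD, n = 3), with p = 0.1 in an exact two-sided permutation test, the smallest it can give. This ratio is taken within a library, so it does not depend on the scaling between libraries, and it compares counts that are not divided by length. Chrng and Chrnd are neighbours on chromosome 1, at 87205811 to 87211835 and 87190597 to 87200070 on GRCm38, with 5740 bases between them. The log2 fold change of Chrng was -1.17 and that of Chrnd was -0.52, and the difference between these values was not tested. The ratio above does not test it, because Chrna1 had the most counts of the shared subunits and weighs most in their mean. In KO replicate 1, Chrna1 had 42929 counts, Chrnb1 8135 and Chrnd 8948. The log2 ratio of Chrne counts to the mean count of the shared subunits, with 0.5 added to both, was also lower in KO without overlap. Its means were -13.65 ± 0.63 in KO and -11.90 ± 0.74 in WT (SD, n = 3), with p = 0.1 in the same permutation test. That ratio rests on 2 Chrne counts in all KO libraries and 15 in all WT libraries.

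**Figure D3:**
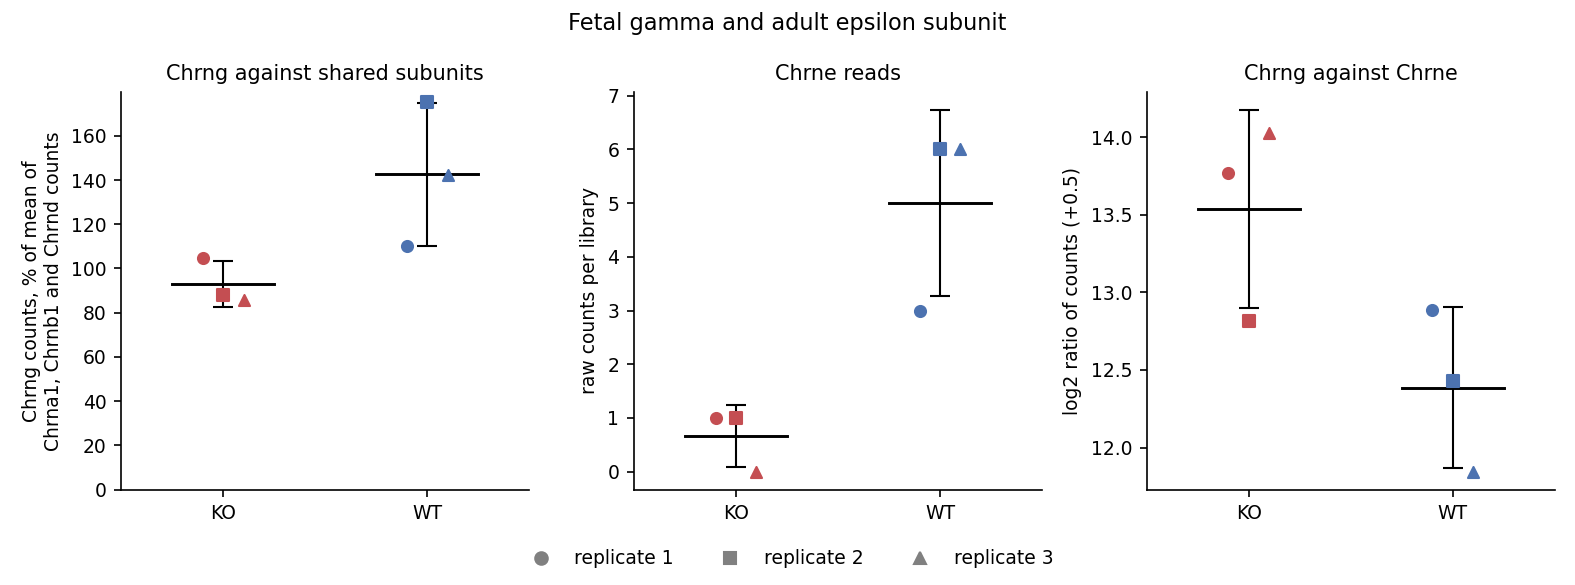
Left, Chrng counts as a percentage of the mean count of the shared subunits. Middle, raw Chrne counts. Right, log2 ratio of Chrng to Chrne counts with 0.5 added. Each symbol is 1 library, with mean and SD (n = 3 each). KO lies below WT without overlap in the left and middle plots and overlaps WT in the right plot, whose axis does not start at 0.

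The agrin receptor gene Lrp4 and the kinase gene Musk had lower means in KO libraries. Musk was at 93.0, 76.5 and 51.7 CPM in KO libraries, against 136, 309 and 137 CPM in WT libraries. The groups did not overlap, and WT replicate 2 stood far above the other WT libraries. The log2 fold change was -1.39 (SE 0.37), the largest in size among the 9 tested members, with an edgeR adjusted p of 0.170 and a DESeq2 adjusted p of 0.00971. The authors' deposited table held -1.21, adjusted p = 0.00975. Without the library labelled KO replicate 2, the edgeR log2 fold change of Musk was -1.42 (SE 0.47) and the DESeq2 adjusted p 0.0452. Without WT replicate 2 the edgeR log2 fold change was -0.89 (SE 0.25) and the DESeq2 adjusted p was 0.0886, and without KO replicate 3 that p was 0.153.

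Lrp4, which encodes the agrin receptor, was at 283, 336 and 251 CPM in KO libraries, against 449, 509 and 336 CPM in WT libraries. KO replicate 2 was level with WT replicate 3, and the other KO libraries were below every WT library. The log2 fold change was -0.57 (SE 0.21), with an unadjusted edgeR p of 0.0269 and an adjusted p of 0.233. Dok7, the activator of MuSK, was at 193, 119 and 141 CPM in KO libraries, against 179, 266 and 192 CPM in WT libraries, and KO replicate 1 lay above WT replicate 1. Rapsn, the receptor-anchoring scaffold, was at 112, 113 and 82.2 CPM in KO libraries, against 149, 181 and 107 CPM in WT libraries, and 2 KO libraries lay above WT replicate 3. The log2 fold changes of Dok7 and Rapsn were -0.49 and -0.51, with edgeR adjusted p of 0.320 and 0.300, and they were -0.30 and -0.32 without WT replicate 2. The RefSeq gene Gm13778 overlaps Rapsn and had at most 135 counts in a library, against at least 1455 for Rapsn.

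Ache, the gene of the enzyme that breaks down acetylcholine in the synaptic cleft, was low in all libraries and varied within both groups. It was at 6.17, 0.984 and 2.82 CPM in KO libraries, against 8.48, 3.09 and 0.794 CPM in WT libraries. The groups overlapped over nearly their whole range, and the log2 fold change was -0.32 (SE 0.88) with an edgeR adjusted p of 0.874. Its sign turned when the library labelled KO replicate 2 or WT replicate 1 was left out.

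Differences between libraries of 1 genotype ran through most members. KO replicate 1 had the highest KO value for 8 of the 10 members, and WT replicate 2 the highest WT value for 9 of 10. When KO replicate 1, 2 or 3 was omitted, edgeR had 6, 2 and 1 members lower in KO at an unadjusted p under 0.05, where 8.07%, 6.02% and 2.84% of all tested genes were lower. When WT replicate 1, 2 or 3 was omitted it had 3, 1 and 6, where 9.84%, 3.47% and 6.65% of all tested genes were lower. DESeq2 called 5, 1 and 0 members lower when KO replicate 1, 2 or 3 was omitted, with 3.83%, 1.09% and 0.26% of all genes called lower. It called 2, 0 and 2 when WT replicate 1, 2 or 3 was, with 4.75%, 0.302% and 1.42% of all genes. Musk was among the members at an unadjusted p under 0.05 in each of the 6 edgeR fits. Apart from Ache, every tested member had a negative log2 fold change in each of the 19 other settings.

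**Figure D4:**
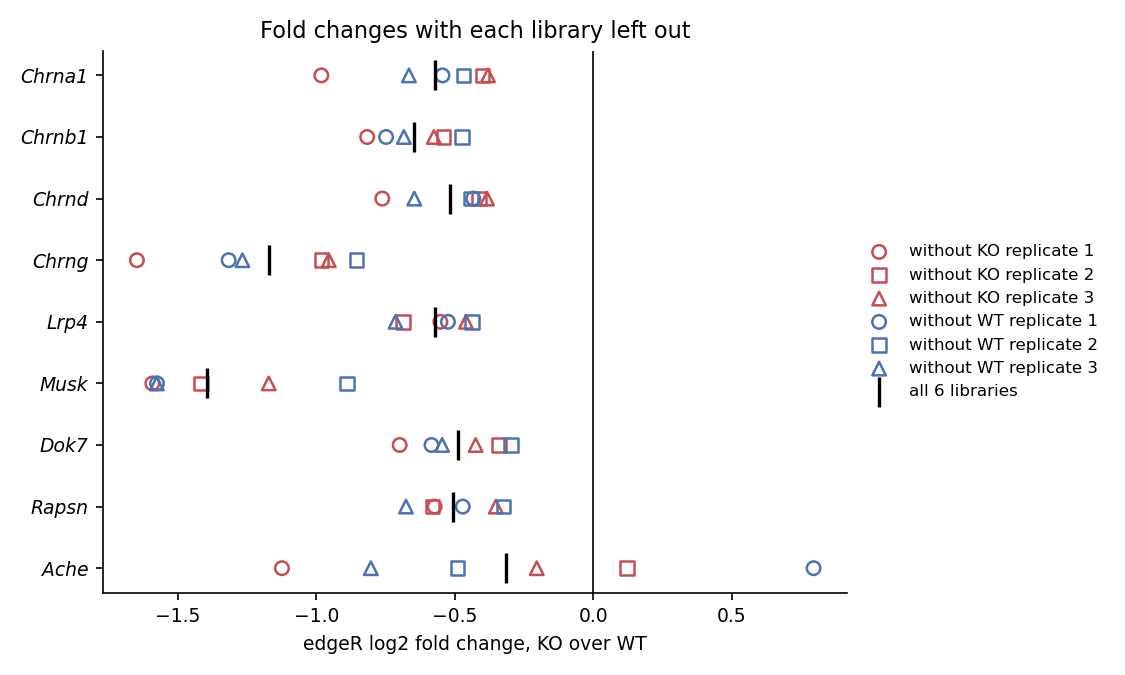
edgeR log2 fold change of KO over WT with each library left out in turn (open symbols, coloured by the genotype of the library left out) and with all 6 libraries (black line). The values of 8 genes stay below 0 in every case, and those of Ache lie on both sides.

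Genes of terminal muscle differentiation, in which myotubes form their contractile apparatus, were compared because receptor genes are switched on in the same phase. Their 15 tested genes, chosen with earlier results of these data known, all had lower values in KO, and their log2 fold changes had a median of -1.51. At an unadjusted p under 0.05 in edgeR 12 of the 15 were lower and 0 higher, against 7.83% lower over all tested genes, 0 passed the adjusted threshold, and DESeq2 called 9 lower, against 2.21% of all genes. Without the library labelled KO replicate 2, 3 of the 15 were lower at that unadjusted level, against 6.02% of all tested genes. The number was 15 and 6 without KO replicate 1 or 3 (8.07% and 2.84% of all tested genes) and 15, 5 and 5 when WT replicate 1, 2 or 3 was omitted (9.84%, 3.47% and 6.65%). Their summed level was 26072, 11951 and 8964 CPM in KO replicates 1, 2 and 3, against 22133, 64815 and 50833 CPM in WT replicates 1, 2 and 3. KO replicate 1 was the highest KO library, above WT replicate 1, and WT replicate 2 was the highest WT library here too. Myh3, embryonic myosin heavy chain, was at 6444 ± 4079 CPM in KO and 21322 ± 11439 CPM in WT (SD, n = 3). Myog, the myogenic factor that drives terminal differentiation, was at 1780, 1624 and 970 CPM in KO libraries, against 2511, 2018 and 2005 CPM in WT libraries, with no overlap and an edgeR adjusted p of 0.307. Of the 8 myoblast identity genes, all tested, 2 were lower (Des and Itga7) and 3 higher (Vcam1, Cd34 and Pax7) in KO at an unadjusted p under 0.05 in edgeR (7.83% and 9.88% of all tested genes), and DESeq2 called 1 lower and 2 higher (2.21% and 4.17% of all genes). Pax7, a factor of muscle stem cells, was at 106 ± 22.6 CPM in KO and 67.1 ± 11.4 CPM in WT, and Cd34, a marker of the sort, at 10.7 ± 7.26 CPM in KO and 1.64 ± 0.996 CPM in WT (SD, n = 3). The part of the stage of differentiation in the receptor gene values was not tested.

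The level of each member per kilobase of exon, from the union of annotated exons in GENCODE vM1, put the receptor above its clustering machinery. Averaged over the 6 libraries, Chrng stood first at 563 CPM per kilobase, followed by Chrna1 at 403, Chrnb1 at 168, Chrnd at 136, Rapsn at 68.8, Dok7 at 43.0, Musk at 35.2, Lrp4 at 33.9, Ache at 0.806 and Chrne at 0.0878. Chrng was above Chrna1 in 6 of 6 libraries, but by little in KO replicates 2 and 3, and its KO mean was 346 ± 170 against 325 ± 141 CPM per kilobase for Chrna1 (SD, n = 3). In WT libraries the means were 780 ± 268 for Chrng and 482 ± 69.5 CPM per kilobase for Chrna1. Musk lay below Lrp4 in all 3 KO libraries, with means of 19.4 ± 5.46 for Musk and 27.3 ± 4.03 CPM per kilobase for Lrp4. In WT libraries Musk lay above Lrp4 in replicates 2 and 3, with means of 51.0 ± 26.1 and 40.6 ± 8.28 CPM per kilobase, so the order of these genes differed between the genotypes, which was not tested. Chrnb1 over Chrnd, Dok7 over Musk and Ache over Chrne held in 5 of 6 libraries, and Musk was above Dok7 in WT replicate 2. The other neighbours in this order kept it in all 6 libraries.

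**Figure D5:**
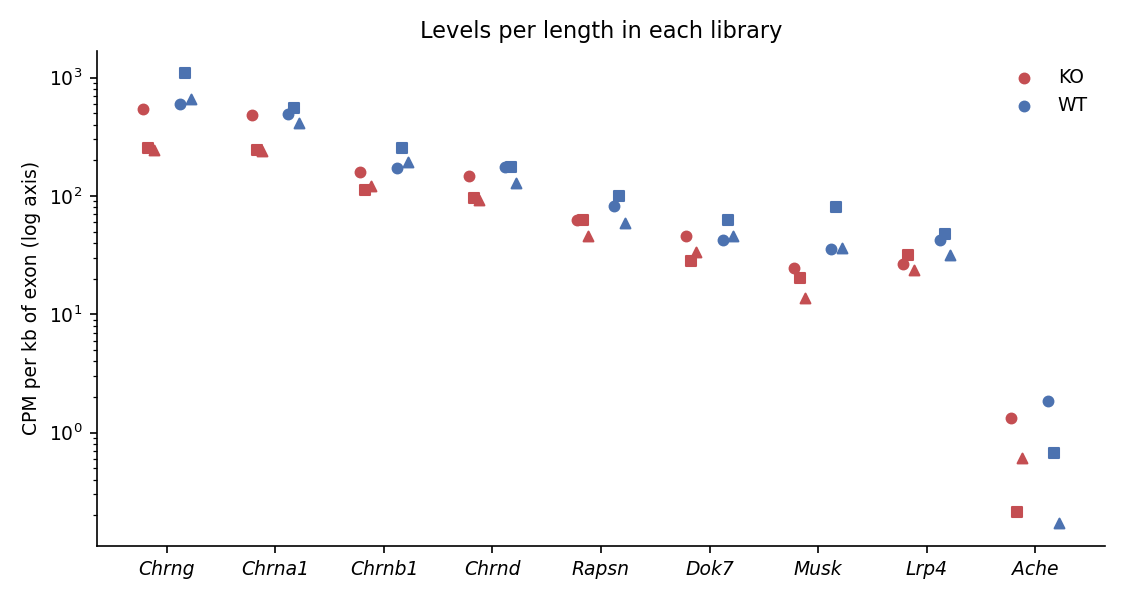
Level per kilobase of exon in each library on a log axis, for the 9 tested members in order of their mean, KO left of WT within each gene. The 4 subunit genes lie above the clustering genes, and Ache lies lowest. Symbols stand for replicates 1 (circle), 2 (square) and 3 (triangle).

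Other genes of the postsynaptic apparatus and of MuSK signalling had fold changes of both signs. Of 39 tested genes, 9 were lower and 4 higher in KO at an unadjusted p under 0.05 in edgeR, where 7.83% of all tested genes were lower and 9.88% higher, so the number of higher ones was near the background. None passed the adjusted threshold in edgeR, and DESeq2 called 2 lower and 1 higher, where it called 2.21% of all genes lower and 4.17% higher. Without the library labelled KO replicate 2, the edgeR numbers were 4 lower and 3 higher (917 and 1450 of all 15235 tested genes). They were 2 and 2 without KO replicate 3 (434 and 904 of 15281) and without WT replicate 2 (529 and 1080 of 15260). Under scaling by library totals they were 6 and 6 (700 and 2019 of 14835). With all libraries and TMM scaling, the median log2 fold change of the 39 genes was -0.14. Those called lower by DESeq2 were Sntb1, which encodes a syntrophin of the dystrophin complex, at 116 ± 39.6 CPM in KO and 253 ± 43.6 CPM in WT (adjusted p = 0.00971), and Macf1, which links microtubules to the postsynaptic membrane, at 985 ± 202 CPM in KO and 2135 ± 655 CPM in WT (adjusted p = 0.00806). The one called higher was Dok1, an adaptor related to Dok7, at 11.2 ± 4.28 CPM in KO and 5.01 ± 0.958 CPM in WT (adjusted p = 0.0261). Agrn, the ligand of the pathway, was at 128, 172 and 131 CPM in KO libraries, against 93.7, 104 and 122 CPM in WT libraries, without overlap. Its log2 fold change was 0.43 (SE 0.18) with an edgeR adjusted p of 0.267, a sign opposite to those of its receptor genes Lrp4 and Musk. Muscle cells make their own form of agrin, and the counts do not separate the splice forms. Colq, which encodes the collagen tail that holds acetylcholinesterase in the basal lamina, was at 2.12 ± 1.61 CPM in KO and 6.64 ± 3.00 CPM in WT, and Scn4a, the muscle sodium channel gene, at 34.9 ± 23.8 CPM in KO and 106 ± 69.1 CPM in WT, with edgeR adjusted p of 0.244 and 0.248. Utrn, the synaptic relative of dystrophin, was at 175 ± 23.0 CPM in KO and 258 ± 75.6 CPM in WT (edgeR adjusted p = 0.276).

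Regulators of synaptic genes were examined next. Of 18 tested, 5 were lower and 3 higher in KO at an unadjusted p under 0.05 in edgeR (7.83% and 9.88% of all tested genes), with 0 past the adjusted threshold, and DESeq2 called 2 lower and 1 higher (2.21% and 4.17% of all genes). Without the library labelled KO replicate 2, the edgeR numbers were 2 and 3 (917 lower and 1450 higher of all 15235 tested genes). They were 2 and 2 without KO replicate 3 (434 and 904 of 15281) and without WT replicate 2 (529 and 1080 of 15260). The neuregulin receptor genes Erbb3 and Erbb2 were at 273 ± 131 and 91.1 ± 22.3 CPM in KO and 604 ± 225 and 163 ± 72.4 CPM in WT (edgeR adjusted p of 0.231 and 0.271). Etv4, an ETS factor, was at 18.1, 7.47 and 49.5 CPM in KO libraries, against 4.31, 3.73 and 4.76 CPM in WT libraries, and DESeq2 called it higher (adjusted p = 0.000786). Gabpa and Gabpb1, the subunits of the ETS factor that binds the N-box, had log2 fold changes of -0.03 and 0.28. Hdac9, a class IIa deacetylase that represses receptor genes in innervated muscle, was at 10.1 ± 4.99 CPM in KO and 25.5 ± 6.99 CPM in WT, and Myf6, a late myogenic factor, at 1.49 ± 1.43 CPM in KO and 17.8 ± 17.5 CPM in WT. DESeq2 called both lower (adjusted p = 0.0230 and 0.0329).

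Genes of receptor subunit folding and glycosylation had no adjusted call. Of 9 tested, 0 passed the adjusted threshold in edgeR, where 0 of all tested genes passed too. At an unadjusted p under 0.05 there, 0 were lower and 0 higher (7.83% and 9.88% of all tested genes). DESeq2 also called 0 (2.21% of all genes lower and 4.17% higher), and 9 genes are too few to set this apart from those shares. Log2 fold changes were negative for 7 and positive for 2, with a median of -0.16. The chaperone gene Hspa5 had the smallest p in edgeR, at 1134 ± 484 CPM in KO and 1966 ± 554 CPM in WT (edgeR adjusted p = 0.293), and its unadjusted p was 0.0241 in DESeq2 and 0.0404 in limma-voom. Subunit genes of neuronal nicotinic receptors were near the limit of detection, with 8 in the table that summed to 1.74 to 3.31 CPM in KO libraries and 1.16 to 4.60 CPM in WT libraries. The 2 of these that were tested, Chrnb2 and Chrna7, had edgeR adjusted p of 0.469 and 0.875. Bche, which encodes butyrylcholinesterase, was at 2.96 ± 1.53 CPM in KO and 2.31 ± 2.64 CPM in WT (SD, n = 3), with an edgeR adjusted p of 0.840.

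The genes whose profile over the 6 libraries lay closest to that of a member were named by the root mean square difference of log2 CPM centred on each gene's mean, among 10807 genes with a mean of at least 5 CPM. For Chrng these were Murc, a muscle gene of caveolae, P2rx5, an ATP-gated ion channel, and Hhatl, with differences of 0.07, 0.09 and 0.13 where the profile of Chrng itself varied by 0.77. For Musk they were Best1, AI464131 and Afap1l1, at 0.12, 0.15 and 0.16, where Musk varied by 0.81. For Chrna1 they were Emc7, Dnajb9 and Laptm4a, at 0.09 each, where Chrna1 varied by 0.48. Between members, the smallest differences were those of Chrnb1 with Dok7 at 0.09 and Lrp4 with Rapsn at 0.10, and that of Chrna1 with Chrnd was 0.14. Chrng lay closer to Musk, at 0.28, than to Chrna1 or Chrnd, at 0.36 and 0.46. All genes share the same 6 libraries and their scaling, so these are descriptions with no test.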

How the data were processed

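Per the labels' protocols, 100 ng of total RNA per culture entered stranded poly(A) library preparation. Per the submitters' processing notes the build was GRCm38, and the tools included featureCounts, Bowtie2 and TopHat2 2.0.8, beside DESeq2, Trimmomatic and FastQC. No source used here states their settings, among them the strand rule of counting. The deposited table holds raw counts per gene. A second set of columns is a signal, normalized per the file headers, in which the ratio to the raw counts is a single size factor per library. The authors' deposited log2 fold changes, test scores, p-values and adjusted p-values are for KO over WT. The count columns were matched to libraries by the letter codes in the sample descriptions, and groups and replicate numbers come from the titles. The series' design text calls the samples biological replicates, so p-values measure the spread between these cultures.

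All fits used the raw counts of all genes. The low-count filter was filterByExpr with genotype as the group. After TMM scaling, quasi-likelihood F tests of edgeR 4.0.16 were run in R 4.3.3 without covariates, with Benjamini-Hochberg adjustment over all tested genes and a threshold of 0.05. Standard errors were derived from the F statistic. Alternatives were limma-voom from limma 3.58.1, DESeq2 1.42.0, other scalings, no filter, a replicate block and each library left out. The scripts were checked on simulated counts. The gamma to epsilon ratio used raw counts plus 0.5 and an exact permutation test, and intervals of shares are exact Clopper-Pearson at 95% and cover counting error only. Same-numbered KO and WT libraries were checked for shared deviations from their group means. Per-length levels used union exon lengths from GENCODE vM1, an annotation of an older build, for lengths only, and gene positions and promoters are from RefSeq on GRCm38.p6. The promoter search covered the 250 bases before each start.

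The members and the gene lists were chosen with earlier results of these data known. Named genes were all members, Hdac11, up to 6 genes per list with the smallest p and up to 3 with the highest mean, and the 3 closest profiles of Chrna1, Chrng and Musk. Chrne was not tested and took no part in that search, which needed a mean of 5 CPM. The genes printed are a subset of these, and Agrn, Utrn, Erbb2, Gabpa and Gabpb1 lie outside the rule and were named after their values were seen.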

Additional observations from a re-analysis of the deposited data

How the results depend on the processing

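In edgeR, 0 members were past the adjusted threshold under every scaling, filter and left-out library tried, where 0 of all tested genes passed too. At an unadjusted p under 0.05, 4 members were lower with TMM or RLE scaling (7.83% and 8.23% of all tested genes). The number was 3 under scaling by library totals (4.72%) and 5, with Chrne, when no filter was used (6.59%). DESeq2 and the authors' deposited table each had 2 lower in KO, with 2.21% and 2.13% of all genes called lower. With DESeq2 and 1 library left out, the number ran from 0 to 5. It was 5, 1 and 0 when KO replicate 1, 2 or 3 was omitted, and 2, 0 and 2 when WT replicate 1, 2 or 3 was. The number of members lower in KO at an unadjusted p under 0.05 in edgeR ran from 1 to 6 with 1 library left out, and was 2 without the library labelled KO replicate 2 and 1 without KO replicate 3 or WT replicate 2. No member was called higher in KO under any setting. Of the 171 member and setting pairs, 14 newly passed the threshold, 153 stayed on the same side and 4 took the opposite sign, all 4 of them Ache. With 1 library left out, its log2 fold change ran from -1.12 to 0.80 in edgeR and from -1.13 to 0.78 in DESeq2, and it was 0.12 in both without KO replicate 2. The gamma to epsilon difference ran from 0.88 to 1.51 with 1 library left out and was 0.19 with 2 added to the counts. A pseudocount of 0 could not be used because KO replicate 3 had no Chrne reads. Lrp4 joined the 3 members without overlap under RLE scaling. Under scaling by library totals the median over all tested genes moved to 0.14 (log2), and Chrng and Musk were then at -1.02 and -1.21. Of 336 counts over the other lists, 294 stayed within 1.5 times their value and 42 did not. The cause of these differences was not tested.

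Same-numbered KO and WT libraries did not deviate together, with correlations of -0.25, -0.07 and 0.05 for numbers 1, 2 and 3 over 14835 genes, and the labels, which speak of WT littermates, tie no replicate number to a litter or day. Between libraries of different numbers, the correlations ran from -0.25 to 0.36. The highest were 0.36 for KO replicate 1 with WT replicate 2 and 0.21 for KO replicate 3 with WT replicate 1. With the replicate block, edgeR called 0 members and had 5 lower at an unadjusted p under 0.05 (6.16% of all tested genes), and the gamma to epsilon difference was 1.15 (exact sign-flip permutation p = 0.25, the smallest that 3 pairs allow). Depth limits Chrne and Ache most, since Chrne had 17 reads in all 6 libraries and Ache had 15 counts in WT replicate 3.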
